A study of Mus musculus with 40 samples.

Results

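Cells grown out of 5 tumours of the passage named N2.1 were compared with cells grown out of 5 tumours of the passage named F2. These are 10 of the 40 libraries of the series, taken by their sample labels, and every one of the 835636 annotated repeat copies in the deposited table was considered. All 10 tumours came from YUMM1.7, a mouse melanoma line, carried through mice in successive passages. The line is known to carry an activated Braf, and neither passage was compared with a line of another genotype. The labels give the groups as N2.1 (tumours A to E) and F2 (tumours A to E), with no further treatment, strain, sex or age of the mice. The meaning of the name N2 is unknown here.

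Tumours were dissociated, the cells were cultured for 1 to 3 passages, and polyadenylated RNA was sequenced. No passage was repeated, and the p-values measure how libraries vary within groups, not how repeats of a passage would vary. Libraries were made in batches of 2021 and 2022 and the F2 cells were sequenced again in 2022, but the labels do not assign batches to libraries. Batch and passage therefore cannot be told apart. Whether the libraries kept strand is unknown, so reads of a gene and of an overlapping or antisense gene could not be separated.

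Repeat copies are remnants of transposable elements. SINEs (B1, B2, B4) are short and common in gene-rich DNA, LINEs (L1) are long and mostly truncated, and LTR elements (IAP, ETn, MERVL, VL30 and the MaLR families) derive from retroviruses. A copy that lies in the exon of a host gene is read with that gene's mRNA, so its signal follows the gene. A copy in an intron is read with unspliced or partly spliced RNA of the gene, and a copy between genes can be read from its own promoter or as an extension of a neighbouring transcript. Mouse cells normally hold copies silent with DNA methylation and with histone methylation that KRAB zinc finger proteins direct to them. The 3 places are therefore given apart.

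Signal is the deposited value, which is the number of reads in a copy divided by 1 factor per library. One read was worth 0.752 to 1.09 of signal in these libraries. Recovered reads in repeats numbered 1817555 to 2575221 per N2.1 library and 1619774 to 2001795 per F2 library. A copy was tested where its mean over all libraries was at least 5, which kept 33215 copies holding 83.7% of the signal. Copies near 0 in F2 could thus enter through the groups where they were high, N2.1 and later passages among them. Shares of tested copies that rose depend in part on this filter. Differences were tested with limma on log2(signal + 1), two-sided, and called at a Benjamini-Hochberg adjusted p under 0.05 over all tests of the table. The spread was pooled over all 40 libraries in 11 groups, among them cultures of the line and repeat libraries of some of the same tumours. The typical copy had a log2 fold change of 0.26 with the deposited factors and of 0.06 with TMM factors, another scaling. A copy or gene is therefore said to have risen or fallen only where both scalings called it with the same sign. Fold changes given are those with the deposited factors on the log2(signal + 1) scale, which understates the change of low copies. Lists of 5 values run from tumour A to tumour E.

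At 6 gene starts the bases just upstream of the start lie inside a repeat copy that differed by at least 3 on the log2 scale under both scalings with groups that did not overlap. They were chosen after their values were seen, and they are shown because a copy that changed there covers bases of the 5′ flank of an annotated transcript. Each of the 6 copies also extends past the start. Its signal can thus include reads of the transcript itself and is no measure of the flank alone. The sequences are the 250 bases before the start in RefSeq (GRCm38.p6), read 5′ to 3′ on the gene's strand, with the bases inside the repeat copy in capitals.
Naip2, minus strand, chr13:100202123-100202372: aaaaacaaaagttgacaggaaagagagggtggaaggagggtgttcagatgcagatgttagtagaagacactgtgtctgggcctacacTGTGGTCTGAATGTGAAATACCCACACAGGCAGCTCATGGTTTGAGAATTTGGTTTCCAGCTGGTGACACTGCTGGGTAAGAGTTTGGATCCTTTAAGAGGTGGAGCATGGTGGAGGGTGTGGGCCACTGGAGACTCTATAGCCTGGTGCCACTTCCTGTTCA
Gm52305, minus strand, chr17:5527362-5527611: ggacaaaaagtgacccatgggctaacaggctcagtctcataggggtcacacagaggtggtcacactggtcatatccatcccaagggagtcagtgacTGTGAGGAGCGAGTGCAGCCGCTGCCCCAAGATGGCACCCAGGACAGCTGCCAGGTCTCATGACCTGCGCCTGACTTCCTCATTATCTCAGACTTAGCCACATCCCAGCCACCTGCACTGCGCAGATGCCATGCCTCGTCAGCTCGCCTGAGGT
Gm38450, plus strand, chr4:23260534-23260783: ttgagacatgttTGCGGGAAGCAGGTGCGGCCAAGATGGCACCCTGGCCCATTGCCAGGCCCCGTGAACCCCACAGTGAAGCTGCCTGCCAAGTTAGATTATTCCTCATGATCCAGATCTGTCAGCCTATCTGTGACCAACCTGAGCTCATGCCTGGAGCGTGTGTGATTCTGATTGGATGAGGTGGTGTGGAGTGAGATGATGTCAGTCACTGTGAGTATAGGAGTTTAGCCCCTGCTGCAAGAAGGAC
Gm11884, plus strand, chr4:23387415-23387664: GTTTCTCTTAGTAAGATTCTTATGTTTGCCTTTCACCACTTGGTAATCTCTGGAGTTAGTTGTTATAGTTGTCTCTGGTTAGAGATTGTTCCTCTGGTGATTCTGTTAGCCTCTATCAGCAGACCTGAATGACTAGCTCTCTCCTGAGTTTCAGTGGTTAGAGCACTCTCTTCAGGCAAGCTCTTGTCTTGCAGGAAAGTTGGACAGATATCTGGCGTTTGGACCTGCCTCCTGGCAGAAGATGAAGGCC
Gm20756, plus strand, chr6:25931176-25931425: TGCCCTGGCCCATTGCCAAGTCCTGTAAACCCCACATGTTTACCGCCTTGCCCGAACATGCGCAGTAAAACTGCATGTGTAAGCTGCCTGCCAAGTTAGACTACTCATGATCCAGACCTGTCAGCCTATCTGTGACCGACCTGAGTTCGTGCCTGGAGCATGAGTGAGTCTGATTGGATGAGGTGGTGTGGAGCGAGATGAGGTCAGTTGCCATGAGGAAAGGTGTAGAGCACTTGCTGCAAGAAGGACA
Dmp1, plus strand, chr5:104197325-104197574: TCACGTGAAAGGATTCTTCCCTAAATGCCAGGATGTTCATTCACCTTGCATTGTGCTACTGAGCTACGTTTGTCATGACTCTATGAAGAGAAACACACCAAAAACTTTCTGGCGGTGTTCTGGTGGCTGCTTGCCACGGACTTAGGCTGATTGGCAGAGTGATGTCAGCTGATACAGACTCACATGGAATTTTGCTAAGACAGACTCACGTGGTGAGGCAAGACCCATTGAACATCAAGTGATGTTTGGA

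The copy at Naip2, an intracellular sensor of bacterial proteins in innate immunity, is an ORR1E element (an LTR of the MaLR group). This copy was placed in a 5′ UTR, so its signal can follow the mRNA. Its signal was 41.1, 46.0, 36.4, 43.3 and 76.0 in N2.1 tumours, against 2.73, 4.37, 4.21, 6.69 and 2.73 in F2 tumours (log2 fold change 3.27, SE 0.46, adjusted p = 3.53e-06). The lowest N2.1 tumour lay above every F2 tumour. The copy at Dmp1, which encodes a matrix protein of bone and dentin, is an RMER19B element, and its signal was 8.40, 29.7, 0, 13.2 and 0.752 in N2.1 tumours, against 71.1, 197, 59.0, 77.5 and 83.6 in F2 tumours (log2 fold change -3.92, SE 0.67, adjusted p = 9.73e-05). It was at a mean of 211 in YUMM1.7 cultures, and the N2.1 tumours lay below all F2 tumours. Without N2.1 tumour B its log2 fold change was -4.51, and without N2.1 tumour C it was -3.28. GENCODE M21 starts Dmp1 4518 bases beyond the copy, so the start shown is that of RefSeq.

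The other 4 starts belong to predicted or noncoding genes. The copies there are MMERVK10D3 or RLTR44 proviral pieces at Gm52305 (log2 fold change 3.67, SE 0.76, adjusted p = 0.00108), Gm38450 (log2 fold change 4.49, SE 0.75, adjusted p = 7.32e-05) and Gm20756 (log2 fold change 4.30, SE 0.69, adjusted p = 3.93e-05), and an L1MdF_IV element at Gm11884 (log2 fold change 5.40, SE 0.85, adjusted p = 3.19e-05). GENCODE M21 places Gm11884 at chr4:23260784-23392503, so its start there directly follows the window shown for Gm38450. The copy at Gm38450 is therefore counted below as an exon copy of Gm11884. The copy at Gm20756 is counted as an exon copy of Gm20756. The L1MdF_IV copy lies in an intron of the GENCODE gene, and the Gm11884 start shown is that of RefSeq. The windows held 0 (Naip2), 6 (Gm52305), 4 (Gm38450), 1 (Gm11884), 6 (Gm20756) and 5 (Dmp1) CG pairs, where methylation can occur. Over 32851 RefSeq windows of the same length the median was 6, and 18.8% had 1 CG pair or fewer. None of the 6 windows held TATAAA on the gene's strand, against 12.4% of all windows. These are counts of letters and say nothing about which factor binds there.

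Among tested copies, those far from genes were called most often and mostly rose, called intron copies mostly rose, and exon copies changed in both directions. Of all 33215 tested copies, 9.7% were called with the deposited factors (2439 higher and 783 lower in N2.1) and 8.28% with TMM factors (1348 higher and 1403 lower). Under both scalings 6.42% were called, 1348 higher (4.06%) and 783 lower (2.36%). For 884 of these higher and 458 of these lower copies the 5 N2.1 and 5 F2 values did not overlap, which is 4.04% of the copies tested. The split between higher and lower calls thus rests on the scaling. With the deposited factors, 941 copies were higher and 340 lower once the intron share of the library was a covariate, and 1481 were higher and 438 lower without F2 tumour B. The intron share is a library's signal in intron copies divided by its total signal. With the spread taken from the 10 libraries alone, 1807 copies were higher and 662 lower.

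Exon copies of host genes (13249 tested) numbered 446 higher and 586 lower under both scalings, with a median log2 fold change of 0.10 (-0.11 with TMM factors). In 5′ UTRs 13 of 565 copies were higher and 38 lower, and in coding exons 44 of 1738 were higher and 103 lower. In 3′ UTRs, which hold most exon copies, 281 of 8489 were higher and 358 lower. In exons of noncoding transcripts 108 of 2457 were higher and 87 lower.

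Intron copies (16473 tested) numbered 679 higher and 100 lower under both scalings, with a median log2 fold change of 0.42 (0.22 with TMM factors). LINE copies in introns were called higher most often, 145 of 2344, against 146 of 3118 LTR copies and 355 of 9992 SINE copies. The lower calls were 14, 15 and 65 in the same order.

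Intergenic copies (3493 tested) numbered 223 higher and 97 lower under both scalings, and their median log2 fold change was 0.18 (0.00 with TMM factors). The share that rose grew with the distance from the nearest gene. It was 16 of 491 copies up to 5 kb upstream of a gene, 91 of 2116 up to 5 kb downstream, 64 of 712 between 5 and 50 kb, and 52 of 174 beyond 50 kb (29.9%), against 4.06% of all tested copies. The copies beyond 50 kb had a median log2 fold change of 0.88 (0.72 with TMM factors), and 6 of them fell. These copies were clustered: 21 of the 52 lie on chromosome 18, 16 on X, 8 on 3, 6 on 4 and 1 on 11. Copies near 0 in F2 were tested where other groups had signal, so the share that rose is in part set by this filter. By class, 96 of 684 intergenic LINE copies rose, 73 of 1286 LTR copies and 38 of 1310 SINE copies.

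**Figure D1:**
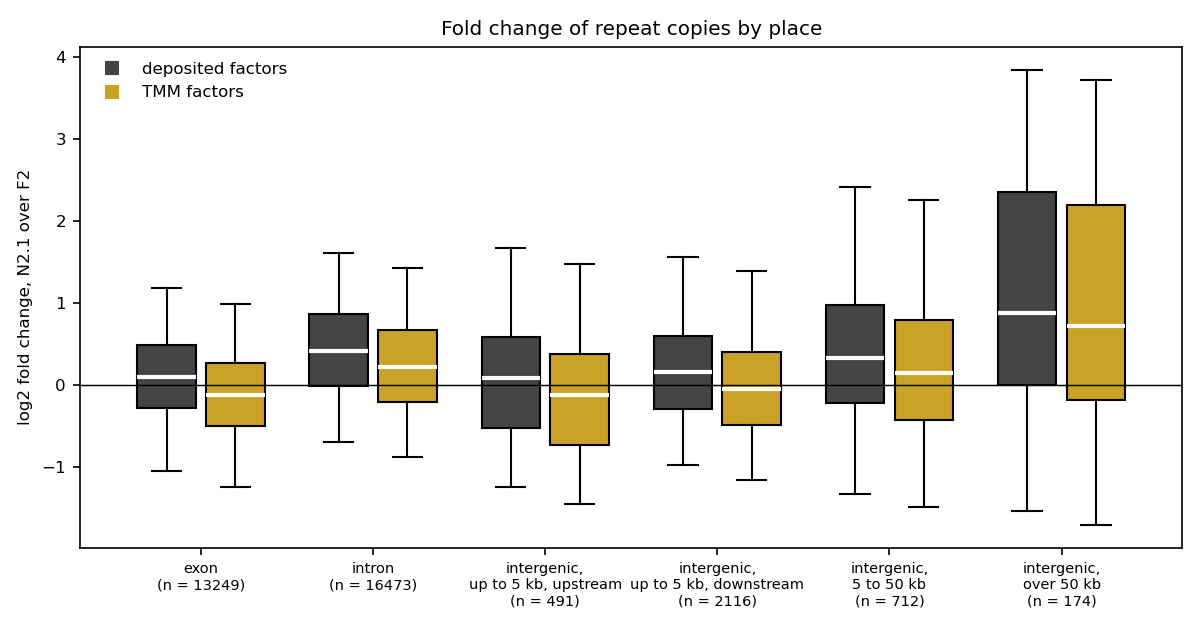
Boxes show the log2 fold change (N2.1 over F2) of tested copies by place, in dark for the deposited factors and in gold for TMM factors, with the number of copies under each place. The box of copies over 50 kb from a gene stands highest under both scalings (medians 0.88 and 0.72), intron copies come next among the large places (0.42 and 0.22), and exon copies lie about 0 (0.10 and -0.11).

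Summed over the exon copies of each gene, 6291 host genes could be tested and 16.7% were called with the deposited factors (623 higher, or 9.9%, and 429 lower, or 6.82%). Under both scalings 11% were called, 261 higher (4.15%) and 429 lower (6.82%), and 195 and 216 of these, 6.53% of the genes, had groups that did not overlap. Each gene is seen only through its exon repeats, so most genes of the genome are not measured here. With the intron share of the library as a covariate 370 were higher and 148 lower with the deposited factors, and without F2 tumour B 241 were lower. In RNA from a mixture of cells, fewer cells that express a gene and less RNA per cell cannot be told apart.

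The 12 genes that fell furthest with groups that did not overlap were Itih5, Zfp422, Ptgfr, Ednra, Rian, A830036E02Rik, Chrna1, Zdhhc2, Glp1r, Chrdl1, Nrk and Chrm3. Itih5 encodes a heavy chain that binds hyaluronan in the extracellular matrix, and lies at chr2:10153571-10256529. Its exon copies summed to 9.24, 1.02, 0, 2.65 and 0 in N2.1 tumours, against 55.6, 568, 626, 179 and 129 in F2 tumours (log2 fold change -6.51, SE 1.11, adjusted p = 8.70e-05). All 4 tested copies in its 3′ UTR fell (Lx8, B1_Mur2, B4 and MLT1A, log2 fold changes of -5.79, -5.25, -4.99 and -4.90). Without F2 tumour A the MLT1A value was -5.60. The 3 YUMM1.7 cultures had sums of 53.2, 176 and 1815, levels that differed widely between cultures. Itih5 averaged 39.0 in F0 and 21.4 in F1 tumours, against 312 in F2, so the passages just before F2 were already lower than F2. Which cells carried the signal in F2 was not tested.

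The sum of Ednra, the endothelin receptor type A, was 0 in all 5 N2.1 tumours, against 17.3, 101, 52.7, 29.6 and 10.00 in F2 tumours, at least 15.4-fold lower against a floor of 3 reads per library. Ptgfr, the prostaglandin F receptor, had 10.9, 7.16, 0, 0 and 0 in N2.1 tumours, against 55.6, 215, 134, 72.7 and 85.4 in F2 tumours (log2 fold change -5.34, SE 0.78, adjusted p = 1.06e-05). For both genes the passages did not overlap, and F2 tumour B was highest. Chrna1, a subunit of the muscle acetylcholine receptor, had 0, 2.05, 1.04, 0 and 2.26 in N2.1 tumours, against 15.5, 91.8, 76.9, 122 and 24.5 in F2 tumours (log2 fold change -4.83, SE 0.87, adjusted p = 1.55e-04). Chrm3, a muscarinic acetylcholine receptor, had a log2 fold change of -4.42, and Glp1r, the receptor of glucagon-like peptide 1, one of -4.65, which was not called with the intron share of the library as a covariate (-3.25, adjusted p = 0.0933, limma). Ednra, Ptgfr, Chrna1 and Chrm3 had culture means of 23.1, 53.6, 36.8 and 29.3, while Glp1r was at 2.59. In N2.3 tumours Chrna1 averaged 51.8 and Glp1r 30.1, and Ednra, Ptgfr and Chrm3 averaged 0.535, 1.11 and 0.

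Zfp422, a zinc finger transcription factor, had exon sums of 3.36, 0, 0, 0.883 and 0 in N2.1 tumours, against 32.8, 108, 81.1, 29.6 and 94.5 in F2 tumours (log2 fold change -5.34, SE 0.79, adjusted p = 1.35e-05), and its culture mean was 83.3. Nrk, a protein kinase, had 1.68, 0, 0, 0 and 0 in N2.1 tumours, against 18.2, 47.0, 25.3, 32.5 and 21.8 in F2 tumours (log2 fold change -4.54, SE 0.42, adjusted p = 1.96e-09). Zdhhc2, which adds palmitate to proteins, and Chrdl1, a secreted antagonist of bone morphogenetic proteins, had log2 fold changes of -4.77 and -4.63, and without F2 tumour D that of Zdhhc2 was -5.40. Rian, a maternally expressed noncoding RNA of the imprinted Dlk1-Dio3 region, had 0, 1.02, 0, 0 and 0 in N2.1 tumours, against 92.0, 10.9, 4.22, 255 and 32.7 in F2 tumours (log2 fold change -4.91, SE 0.98, adjusted p = 6.07e-04). The F2 values of Rian ranged widely, and N2.1 was near 0 in every tumour. Without F2 tumour C the value of Rian was -5.60, and without F2 tumour D it was -4.19. The noncoding antisense gene A830036E02Rik was 0 in all 5 N2.1 tumours, against 9.11, 107, 37.9, 11.47 and 36.3 in F2 tumours, at least 14.8-fold lower, and at 0.996 in cultures.

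The 12 genes that rose furthest were 7 protein-coding genes, 3 long noncoding RNAs, a processed pseudogene and a locus still to be experimentally typed, and their means in YUMM1.7 cultures were 0 to 5.53. Gm773, a protein-coding gene on X whose coding exon overlaps a YREP_Mm copy at chrX:56196019-56196584, had 279, 217, 12.5, 358 and 46.6 in N2.1 tumours, against 0.911, 3.28, 0, 1.91 and 3.63 in F2 tumours (log2 fold change 5.38, SE 0.90, adjusted p = 6.27e-05). Without N2.1 tumour C its log2 fold change was 6.13. Its mean was 0.645 in cultures, 503 in N2.2 and 546 in N2.3 tumours. Gm14412 and Gm14401 both lie between 177 and 178 Mb of chromosome 2. Gm14412 had 28.6, 26.6, 22.9, 34.5 and 16.6 in N2.1 tumours, against 0 in all 5 F2 tumours, at least 8.73-fold higher against a floor of 3 reads per library. Gm14401 had 41.1, 14.3, 15.6, 31.8 and 14.3 in N2.1 tumours, against 0.911, 0, 0, 0.956 and 0 in F2 tumours (log2 fold change 4.09, SE 0.39, adjusted p = 2.51e-09). Zfp979, a zinc finger gene, had 37.8, 23.5, 4.16, 39.8 and 7.53 in N2.1 tumours, against 0, 0, 0, 1.91 and 0 in F2 tumours (log2 fold change 3.83, SE 0.44, adjusted p = 1.06e-07), and Pcdh10, a protocadherin of cell adhesion, had 24.4, 25.6, 6.24, 28.3 and 16.6 in N2.1 tumours, against 0, 3.28, 0, 0 and 0 in F2 tumours (log2 fold change 3.83, SE 0.54, adjusted p = 5.08e-06). N2.1 tumour C was lowest for Gm773, Zfp979 and Pcdh10.

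Gm12174, a processed pseudogene, starts at position 46727818 of chromosome 11 and overlaps the last bases of the 6371-base L1MdA_III copy at chr11:46721464-46727834, whose signal was 89.8, 122, 83.1, 88.3 and 109.8 in N2.1 tumours, against 1.82, 3.28, 8.43, 5.74 and 3.63 in F2 tumours (log2 fold change 4.26, SE 0.35, adjusted p = 1.54e-11). All 5 N2.1 values lay close together and far above the F2 values. BC026762, a long noncoding RNA whose exon overlaps an IAP1 copy on chromosome 7, had 21.8, 11.3, 38.5, 16.8 and 75.2 in N2.1 tumours, against 0, 0, 0, 0.956 and 0.909 in F2 tumours (log2 fold change 4.39, SE 0.59, adjusted p = 2.13e-06). C130026I21Rik, Gm11884, Gm20756, Gm6871 and Gm38124 rose by 4.51, 4.35, 4.24, 4.15 and 4.03 on the log2 scale. Gm11884 had 3.76 without F2 tumour C and Gm6871 4.81 without N2.1 tumour C. How reads that map to several near-identical copies were treated is unknown, so values of young L1 and IAP copies are uncertain.

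**Figure D2:**
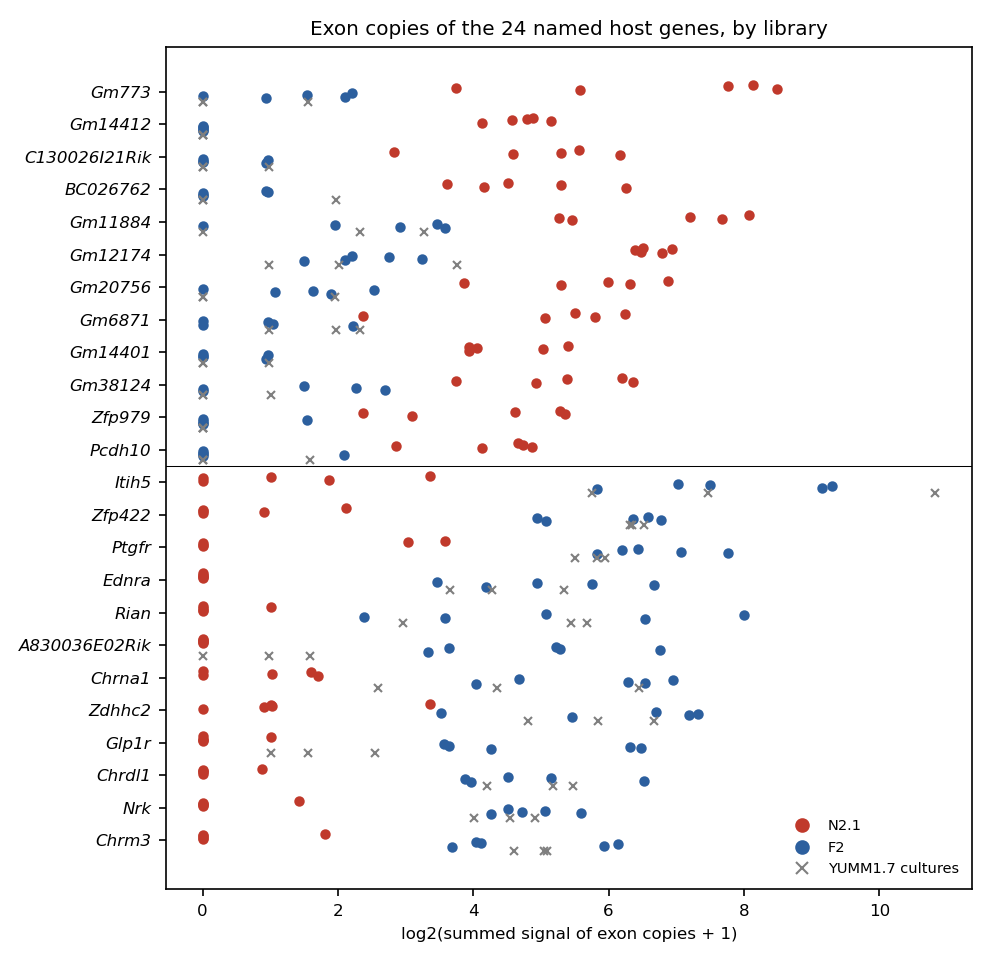
Each point is the summed exon-copy signal of a gene in 1 library, on a log2(sum + 1) axis, for the 12 genes that rose and the 12 that fell furthest with groups that did not overlap. Red points are N2.1 tumours, blue points F2 tumours and grey crosses YUMM1.7 cultures. For the genes that fell, the red points sit at or near 0 (Ednra at 0 in all 5), while most grey crosses lie among the blue points.

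Several genes changed with most of their repeat copies at once. Gxylt2 adds xylose to the sugar chains of Notch receptors, and all 12 tested exon copies and both intron copies fell. Its exon sum was 321, 583, 88.3, 127 and 67.0 in N2.1 tumours, against 1810.0, 1409, 1570.2, 1813 and 661 in F2 tumours (log2 fold change -3.00, SE 0.79, adjusted p = 0.00801). Slc14a1, a urea transporter on chromosome 18, had 368, 946, 233, 295 and 129 in N2.1 tumours, against 1142, 2876, 1889, 1488 and 1262 in F2 tumours (log2 fold change -2.37, SE 0.47, adjusted p = 6.12e-04). Ctsl, the lysosomal protease cathepsin L, had 46.2, 58.3, 28.1, 53.0 and 30.8 in N2.1 tumours, against 79.3, 223, 155, 199.9 and 102 in F2 tumours (log2 fold change -1.74, SE 0.31, adjusted p = 1.38e-04). For these 3 genes the highest N2.1 tumour stayed below the lowest F2 tumour, and the culture means were 2169, 2012 and 170.1.

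Among genes that rose, Gm2000 had the lowest adjusted p of the host genes named here. Its 1 exon copy, an RLTR28 element at chr1:156365948-156366069, had 514, 818, 826, 754 and 808 in N2.1 tumours, against 36.5, 87.5, 43.2, 44.9 and 79.1 in F2 tumours (log2 fold change 3.72, SE 0.21, adjusted p = 2.87e-15). Fgd3, an exchange factor for the GTPase Cdc42, had 170.5, 155, 185, 238 and 206 in N2.1 tumours, against 11.8, 12.03, 8.43, 21.99 and 24.5 in F2 tumours (log2 fold change 3.60, SE 0.44, adjusted p = 3.63e-07) through an MTEb-int copy, and its intron copies rose as well (3.64). In a zinc finger cluster on chromosome 2 between 150 and 151 Mb, 27 of 90 tested copies rose and none fell. Zfp345 there had 160.4, 189, 133, 213 and 130.2 in N2.1 tumours, against 20.96, 25.1, 33.7, 33.5 and 11.8 in F2 tumours (log2 fold change 2.74, SE 0.34, adjusted p = 4.28e-07), and Gm14124 rose by 3.04. C920009B18Rik, a pseudogene on chromosome 10, rose in all 8 tested copies (93.2, 35.8, 111, 94.5 and 202 in N2.1 tumours, against 10.9, 1.09, 7.38, 9.56 and 6.36 in F2 tumours, log2 fold change 3.77, SE 0.40, adjusted p = 3.03e-08). These windows and genes were picked for their number of called copies, so the counts are a description.

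Intron sums of many genes were higher in N2.1, and most of these calls were lost once the intron share of each library was fitted. That share is made from the same intron signal that is tested, so part of this loss is built into the fit. Summed per gene, 9912 genes had intron copies to test, and 28.5% were called with the deposited factors (2729 higher and 98 lower). Under both scalings 15.3% were called, 1423 higher (14.4%) and 98 lower (0.989%; 1.47% were lower with TMM factors), and the median log2 fold change was 0.57 (0.36 with TMM factors). In 811 of the higher and 53 of the lower genes, 8.72% of those tested, the groups did not overlap. With the intron share of the library as a covariate 232 were higher and 66 lower with the deposited factors, and without F2 tumour B 1530 were higher and 64 lower. Over the table, 5.50% of tested copies lie in more than 1 gene.

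The genes with the most risen intron copies were Luc7l2 and Tra2a. Tra2a, a regulator of splice site choice, had 13 of 15 tested intron copies higher, and its intron sum was 806, 465, 487, 907 and 629.7 in N2.1 tumours, against 255, 155, 142, 159.7 and 171 in F2 tumours (log2 fold change 1.88, SE 0.21, adjusted p = 4.50e-08). Luc7l2, a protein of the U1 splicing particle, had 15 of 25 copies higher and an intron sum of 1475, 1002, 595, 1274 and 852 in N2.1 tumours, against 488, 470.1, 400.5, 423 and 511 in F2 tumours (log2 fold change 1.12, SE 0.20, adjusted p = 1.84e-04). In both genes the lowest N2.1 tumour lay above the highest F2 tumour. The exon sum of Luc7l2 also rose, by 0.69. Acta2, smooth muscle actin, had all 8 tested intron copies higher, with 595, 82.9, 161, 315 and 451 in N2.1 tumours, against 32.8, 17.5, 5.27, 12.4 and 33.6 in F2 tumours (log2 fold change 3.86, SE 0.69, adjusted p = 1.52e-04). Pdlim7 and Cald1, proteins that bind actin filaments, had intron sums higher by 1.85 and 1.65. Farp2, an exchange factor of small GTPases, had 1888, 1617, 1953, 1634 and 1957 in N2.1 tumours, against 1017, 561, 789, 653 and 1022 in F2 tumours (log2 fold change 1.20, SE 0.20, adjusted p = 4.58e-05).

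Serpina1b, a serine protease inhibitor known from liver, had all 6 tested intron copies higher, with 270.4, 217, 38.5, 197 and 47.4 in N2.1 tumours, against 2.73, 3.28, 0, 1.91 and 0 in F2 tumours (log2 fold change 5.77, SE 0.47, adjusted p = 5.75e-12). Tumours C and E were the lowest of N2.1 and still above every F2 tumour. Slc1a5, a transporter of glutamine, and Phc2, a Polycomb protein, rose by 1.37 and 1.52 in introns, while their exon sums were not called (adjusted p of 0.243 and 0.637, limma). The B1_Mus2 copy in an intron of Arpc1a, a subunit of the Arp2/3 actin nucleator, at chr5:145087336-145087481, had 40.3, 52.2, 44.7, 55.7 and 57.2 in N2.1 tumours, against 1.82, 2.19, 7.38, 0 and 1.82 in F2 tumours (log2 fold change 4.11, SE 0.54, adjusted p = 1.37e-06).

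Few intron copies fell. Rasgrf1, an exchange factor of Ras, had an intron sum of 33.6, 10.2, 2.08, 4.42 and 3.01 in N2.1 tumours, against 144, 228, 274, 86.1 and 482 in F2 tumours (log2 fold change -4.76, SE 0.52, adjusted p = 4.25e-08), and its ID_B1 copy at chr9:90019290-90019486 fell by 4.51 on the log2 scale. The L2b copy in Prkcb, a protein kinase C, at chr7:122630531-122630683, had 27.7, 6.14, 0, 13.2 and 11.3 in N2.1 tumours, against 169.5, 165, 379, 328 and 118 in F2 tumours (log2 fold change -4.70, SE 0.75, adjusted p = 3.52e-05). Without N2.1 tumour C the L2b value was -3.94. N2.1 tumour A was the highest of its group for both genes, and below all F2 tumours. Cspg4, a proteoglycan of melanoma cells and pericytes, had intron sums of 15.1, 10.2, 5.20, 21.2 and 12.04 in N2.1 tumours, against 47.4, 49.2, 72.7, 24.9 and 94.5 in F2 tumours (log2 fold change -2.08, SE 0.38, adjusted p = 1.52e-04). Bmp2, a bone morphogenetic protein, and Crabp1, which binds retinoic acid, fell too (log2 fold changes -2.39 and -3.10), and the Crabp1 groups overlapped. A4galt, which makes the glycolipid Gb3, fell in introns (-2.52) and in exons (-2.50), with groups that overlapped in introns.

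Intron and exon copies of the same gene can be set against each other, and the factor of the library then cancels apart from the 1 added to each sum. For sums near 0 it does not fully cancel. With 5 added instead of 1, the median difference of the log2 ratio given below was 0.51. This comparison was added after the data had been seen. In 2396 genes with a mean of at least 20 in both places, the log2 ratio of intron to exon signal was higher in N2.1 in 708 and lower in 16 (30.2% called), with a median difference of 0.57, and it was positive in 2101 genes (87.7%). The median log2 fold change of these genes was 0.66 in introns and 0.09 in exons. Of the 708 genes, 339 had an intron sum that rose, 95 an exon sum that fell and 6 an exon sum that rose, each under both scalings. Without F2 tumour B the ratio was higher in 334 genes and without F2 tumour C in 438.

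The shift differed between tumours of a passage. The median deviation of a library's ratio from the mean over libraries was 0.54, 0.04, 0.18, 0.47 and 0.44 in N2.1 tumours, against 0.14, -0.71, -0.52, -0.36 and 0.29 in F2 tumours. F2 tumours A and E thus lay among the N2.1 tumours, and F2 tumours B, C and D lay below all of them. With the intron share of the library as a covariate in the fit, 63 genes had a higher and 56 a lower ratio. The share is made from the same intron signal as the ratios, so part of this loss is built into the fit. The part that the intron share of each library plays in the gene-level result was not tested beyond this fit.

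**Figure D3:**
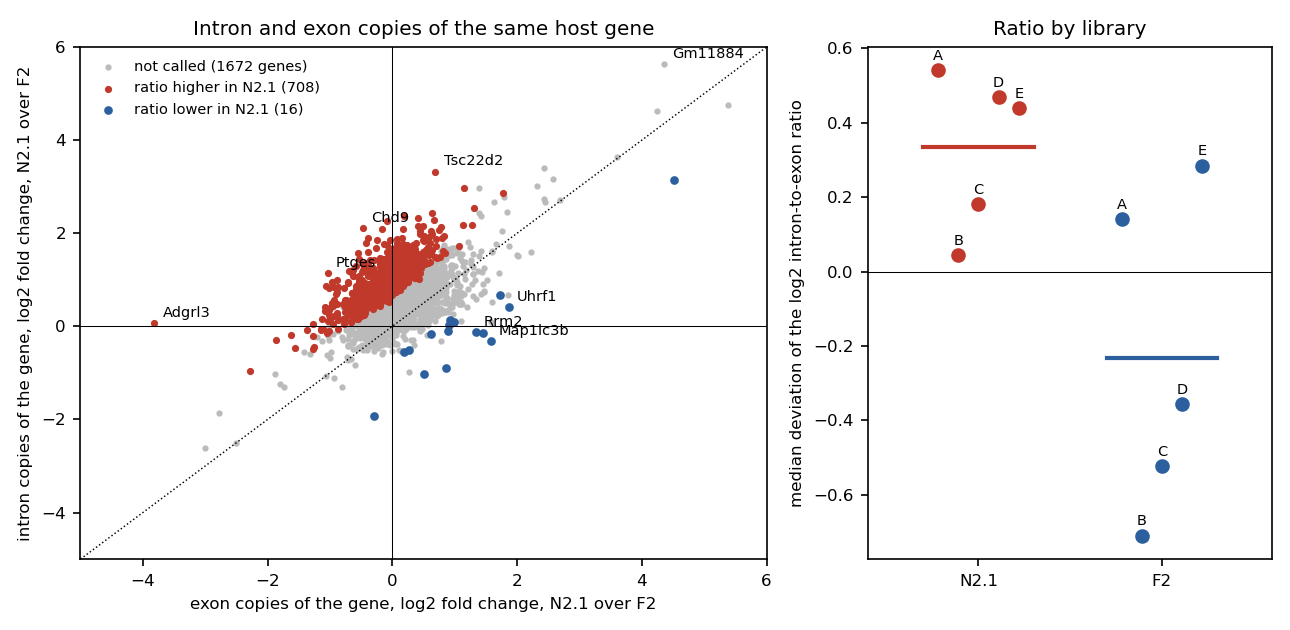
Left, the log2 fold change (N2.1 over F2) of intron sums against that of exon sums for 2396 genes, in red where the ratio was called higher (708), in blue where lower (16) and in grey otherwise, with a dotted line of equal change. Right, the median log2 intron-to-exon ratio of each library as a deviation from the mean, with a line at each group mean: most genes lie above the dotted line, and F2 tumours A and E (0.14 and 0.29) fall among the N2.1 tumours (0.04 to 0.54).

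The largest ratio changes came from lost exon signal in some genes and gained intron signal in others. In Adgrl3, an adhesion receptor of the latrophilin family, the intron copies had 148, 104, 142, 175 and 147 in N2.1 tumours, against 143, 127, 70.6, 150.1 and 234 in F2 tumours, and the exon copies 3.36, 3.07, 2.08, 0 and 9.03 in N2.1 tumours, against 21.9, 156, 87.5, 17.2 and 51.8 in F2 tumours. Exon signal fell by 3.82 while intron signal was not called, so the ratio rose (log2 ratio change 3.88, SE 0.60, adjusted p = 4.16e-05). In Tsc22d2, the intron copies had 154, 114, 125, 115 and 147 in N2.1 tumours, against 26.4, 7.65, 8.43, 4.78 and 28.2 in F2 tumours (log2 fold change 3.32), and the exon copies 149, 86.9, 182, 105 and 152 in N2.1 tumours, against 68.4, 75.4, 43.2, 133 and 114 in F2 tumours (0.69, adjusted p = 0.0987, limma). Chd9, a chromatin remodeller, was of the same kind as Tsc22d2, with a log2 fold change of 2.11 in introns and -0.47 in exons (adjusted p = 0.104, limma). Opa3 and Arf3 followed them, with ratio changes of 2.35 and 2.26.

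Of the 6 genes named for a lower ratio, Map1lc3b, Ap4m1, Rrm2 and Uhrf1 gained exon signal. Map1lc3b, the autophagy protein LC3B, had exon sums of 61.3, 66.5, 86.3, 66.3 and 66.2 in N2.1 tumours, against 30.1, 27.3, 23.2, 18.2 and 16.4 in F2 tumours (log2 fold change 1.57) and intron sums of 28.6, 32.7, 27.0, 35.3 and 18.1 in N2.1 tumours, against 52.9, 26.2, 30.6, 34.4 and 35.4 in F2 tumours (-0.33, adjusted p = 0.399, limma). Its ratio fell by 1.90 on the log2 scale. Ap4m1, a subunit of a vesicle adaptor, Rrm2, a subunit of ribonucleotide reductase, and Uhrf1 had ratio changes of -1.60, -1.47 and -1.45.

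Between genes, neighbouring copies called in the same direction with the deposited factors, at most 50 kb apart, were joined into runs. Called copies within a run thus share a direction by definition. The 4 runs with the most called copies were all higher in N2.1. The longest, 73.8 kb at chr18:18762561-18836321, had all 21 tested copies called under both scalings, with log2 fold changes of 2.08 to 5.51. They belong to IAP1, L1, Lx, ORR1B2, RMER12B, B4A and RLTR45 elements, and the nearest annotated gene is 296896 bases away. Their summed signal was 956, 352, 286, 844 and 369 in N2.1 tumours, against 4.56, 1.09, 7.38, 11.47 and 5.45 in F2 tumours. Across the series, YUMM1.7 cultures averaged 1.62, F0 tumours 6.89, F1 tumours 0.816, F2 tumours 5.99, N2.1 tumours 561, N2.2 tumours 1258 and N2.3 tumours 988. The run was thus near 0 in the cultures and in F0, F1 and F2, and present in N2.1, N2.2 and N2.3.

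The run at chrX:68524866-68548088 had 10 of 10 tested copies called (9 under both scalings), and its sums were 472, 196, 607, 381 and 443 in N2.1 tumours, against 135, 61.2, 212, 112 and 104 in F2 tumours. The F2 tumour C value lay above that of N2.1 tumour B, so the groups overlapped. The run at chr2:150193309-150205155, 30 bases from Gm14139 in the zinc finger cluster of chromosome 2, had 9 of 9 copies called under both scalings and sums of 289, 484, 273, 373 and 246 in N2.1 tumours, against 127, 7.65, 62.2, 115 and 39.98 in F2 tumours. The run at chr2:84586967-84599790 lies 281 bases from Ctnnd1, which encodes p120 catenin. There, 12 of 22 tested copies were called and 8 under both scalings, with sums of 660.0, 372, 502, 541 and 884 in N2.1 tumours, against 211, 227.4, 220.3, 272 and 253 in F2 tumours. In this pair of runs every N2.1 tumour lay above every F2 tumour.

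Another run of 9 copies, on X at chrX:119299485-119333590 and 79662 bases from the nearest gene, was named after its values were seen. Its sums were 118, 23.5, 70.7, 54.8 and 73.7 in N2.1 tumours, against 4.56, 2.19, 0, 7.65 and 3.63 in F2 tumours. It averaged 0 in YUMM1.7 cultures, 1.86 in F0, 2.62 in F1, 214 in N2.2 and 269 in N2.3 tumours.

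**Figure D4:**
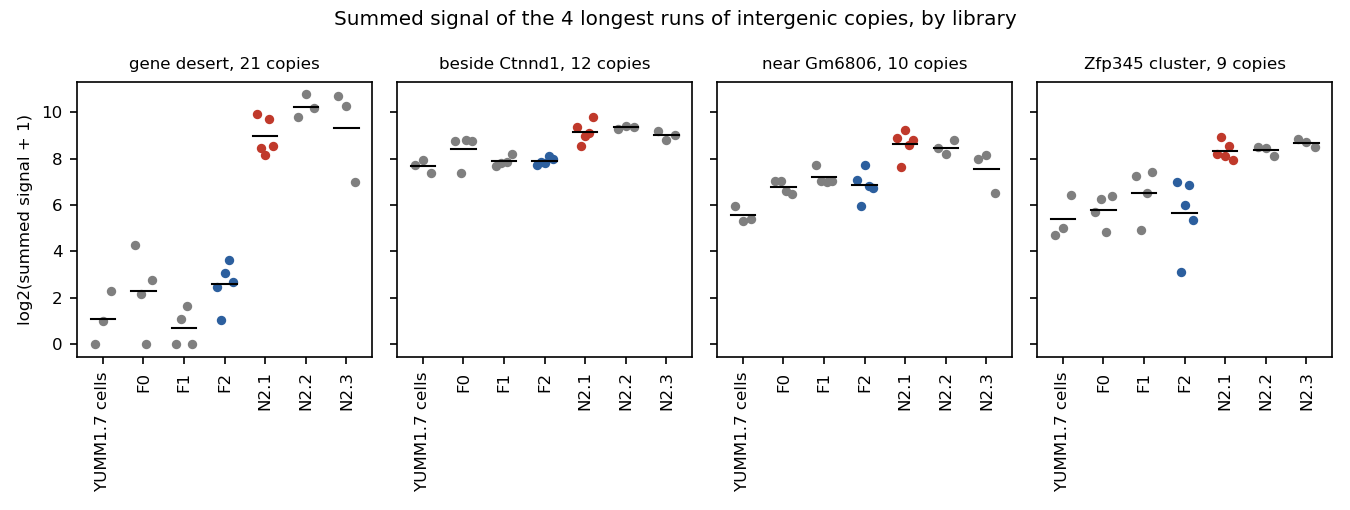
Summed signal of the 4 runs of neighbouring intergenic copies with the most called copies, on a log2(sum + 1) axis, for each library of 7 groups in passage order (YUMM1.7 cells, F0, F1, F2, N2.1, N2.2, N2.3), with a line at each group mean of the log2 values. The chromosome 18 run, labelled as a gene desert, averages 5.99 in F2 and 561 in N2.1 tumours, and the other 3 runs have signal in all 7 groups.

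Single intergenic copies that rose include an L1MD3 piece of 231 bases at chr11:55440851-55441081, 5560 bases from Atox1, a copper chaperone. Its signal was 46.2, 57.3, 102, 55.7 and 66.2 in N2.1 tumours, against 0, 0, 9.48, 0 and 0 in F2 tumours (log2 fold change 5.32, SE 0.79, adjusted p = 1.05e-05; 6.001 without F2 tumour C). A MurSatRep1 copy at chr3:87886150-87886333, 542 bases upstream of Prcc, had 0.840, 72.6, 193, 17.7 and 194 in N2.1 tumours, against 0 in all 5 F2 tumours, at least 32.4-fold higher on the group means against a floor of 3 reads per library (adjusted p = 0.0194, limma). N2.1 tumour A had 1 read there. The fitted log2 fold change was 5.30, and 6.41 without that tumour, and without N2.1 tumour C or E the adjusted p was 0.056 or 0.0596, so the call rests on those tumours.

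Intergenic copies that fell furthest were mostly L1 pieces within a few kb of a pseudogene or predicted gene. An L1MdTf_II copy of 7050 bases at chr7:60156846-60163895, 746 bases from Gm7367, had 1.68, 1.02, 4.16, 1.77 and 2.26 in N2.1 tumours, against 28.3, 74.3, 61.1, 38.2 and 40.9 in F2 tumours (log2 fold change -3.95, SE 0.44, adjusted p = 4.59e-08). An L1_Mur3 copy at chr10:29697684-29698741, 5 bases from Gm10275, had 0.840, 4.09, 3.12, 4.42 and 1.505 in N2.1 tumours, against 20.1, 71.1, 37.9, 33.5 and 46.3 in F2 tumours (log2 fold change -3.50, SE 0.47, adjusted p = 2.16e-06). An L1M4 copy at chrX:52899545-52899908, 76 bases from Rps2-ps13, had 0, 0, 0, 0 and 0.752 in N2.1 tumours, against 18.2, 26.2, 21.1, 14.3 and 9.09 in F2 tumours (log2 fold change -3.99, SE 0.49, adjusted p = 3.05e-07). In each of these copies the N2.1 tumours lay at or below 4.42 and all F2 tumours above them, and the cultures averaged 36.8, 40.3 and 10.5. L1MdV_II and L1MdFanc_I copies beside Gm18486 on chromosome 9 fell too (log2 fold changes -3.58 and -3.33).

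Summed by repeat name and place, 2296 sums were tested and 31.4% were called with the deposited factors (643 higher and 77 lower). Under both scalings 16.4% were called, 300 higher (13.1%) and 77 lower (3.35%), and for 8.93% the groups also did not overlap. With TMM factors 7.88% were lower. Under both scalings 236 of 869 intron sums rose and 5 fell, 35 of 673 intergenic sums rose and 15 fell, and 29 of 754 exon sums rose and 57 fell. The median log2 fold changes were 0.58 in introns, 0.22 between genes and 0.09 in exons. With the deposited factors, 189 sums were higher and 15 lower with the intron share of the library as a covariate, and 43 were lower without F2 tumour B.

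The same repeat name often behaved differently by place. B2_Mm2, a young SINE, averaged 20264 in N2.1 and 12043 in F2 introns (log2 fold change 0.80, SE 0.15, adjusted p = 1.73e-04) and rose under both scalings. In exons it averaged 14861 in N2.1 and 12526 in F2, called with the deposited factors alone (0.25, and 0.02 with TMM factors, adjusted p = 0.888, limma). B1_Mm had log2 fold changes of 0.54 in introns, 0.28 between genes and 0.02 in exons, none called under both scalings. MERVL-int, the internal part of an endogenous retrovirus known from early embryos, rose between genes, with 383, 321, 446, 381 and 342 in N2.1 tumours, against 247, 177, 208, 189 and 291 in F2 tumours (log2 fold change 0.76, SE 0.18, adjusted p = 0.002). All 5 N2.1 values lay above the highest F2 value there, while in exons MERVL-int averaged 271 in N2.1 and 308 in F2 (adjusted p = 0.478, limma). ETnERV2-int rose in introns (1.43) and between genes (1.13). IAPEz-int, an IAP internal part, was called in no place, with adjusted p of 0.278 in exons, 0.295 in introns and 0.198 between genes (limma).

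Many of the largest changes of a name came from 1 copy. In exons, RLTR28 summed to 837, 1144, 1129.7, 1045 and 1106 in N2.1 tumours, against 257, 332, 246, 345 and 271 in F2 tumours (log2 fold change 1.86, SE 0.12, adjusted p = 2.89e-14), and the Gm2000 copy accounted for 90% of the difference between group means. The Fgd3 copy accounted for 101% of that of MTEb-int, and the Gm20559 copy for 87.7% of that of IAPEY4_I-int. In exons IAPEY5_I-int and RLTR1B were called lower at an adjusted p of 0.0499 each (limma), and these calls did not hold: without N2.1 tumour D the adjusted p was 0.259 for IAPEY5_I-int, and without F2 tumour B it was 0.225 for RLTR1B. Shares above 100% mean that the other copies moved the opposite way in sum. Between genes, IAP1-MM_I-int had 556, 188, 315, 407 and 500.3 in N2.1 tumours, against 110.3, 86.4, 98.0, 186 and 70.9 in F2 tumours (log2 fold change 1.81, SE 0.32, adjusted p = 1.07e-04), with 41.5% of the difference in a copy near Olfr782. L1MdA_VII fell, with 401, 231, 343, 378 and 426 in N2.1 tumours, against 497, 738, 632, 690.4 and 611 in F2 tumours (log2 fold change -0.85, SE 0.14, adjusted p = 3.94e-05), with 118% of the difference in a copy near Rpl19-ps11 on chromosome 8, so the other copies of that name had a higher sum in N2.1. L1Lx_II had 263, 293, 302, 294 and 259 in N2.1 tumours, against 380.0, 911, 1034, 787 and 599 in F2 tumours (log2 fold change -1.31, SE 0.28, adjusted p = 8.69e-04), with 107% of the difference in a copy nearest to Siglec15 on chromosome 18. RLTR13D6 between genes had 2952, 9.21, 54.0, 39.8 and 69.2 in N2.1 tumours, against 9.11, 7.65, 9.48, 12.4 and 6.36 in F2 tumours (log2 fold change 3.14, SE 0.70, adjusted p = 0.00117), so the groups overlapped and N2.1 tumour A set the mean. Its log2 fold change was 1.86 without N2.1 tumour A and 3.90 without N2.1 tumour B, and with the intron share as a covariate it was not called (adjusted p = 0.058, limma).

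In introns, LTR67B had 125, 169, 45.7, 63.6 and 138 in N2.1 tumours, against 17.3, 12.02, 23.2, 27.7 and 10.00 in F2 tumours (log2 fold change 2.45, SE 0.37, adjusted p = 1.55e-05), with 38.5% of the difference in a copy of C130026I21Rik. L1MdF_II, with 38.9% of its difference in Acta2, and RLTR45, with 78.6% in the long noncoding RNA AU020206, rose by 1.33 and 1.30. MMVL30-int, the internal part of the VL30 retroelement, had 282, 268, 170.4, 185 and 232 in N2.1 tumours, against 277, 726, 410.0, 435 and 308 in F2 tumours in introns (log2 fold change -0.86, SE 0.23, adjusted p = 0.00415), with 41.6% of the difference in Sntg1. It averaged 323 in N2.1 and 510.0 in F2 exons (log2 fold change -0.61, SE 0.20, adjusted p = 0.0208). Most of its signal lay between genes, with means of 14101 in N2.1 and 23983 in F2. That sum was not called with the deposited factors (-0.78, adjusted p = 0.0536, limma) and was called with TMM factors alone (adjusted p = 0.0272, limma). The VL30 groups overlapped in introns, in exons and between genes, and F2 tumour B was highest in each. With the intron share as a covariate the intron sum of MMVL30-int was not called (-0.36, adjusted p = 0.32, limma).

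Gene lists of pathways were read through their exon copies, so a small part of each list is measured, and each exon count is set against the 4.15% of host genes that rose and the 6.82% that fell. Intron counts are set against the 14.4% of intron sums that rose and the 0.989% that fell. Of the factors that silence repeats, 14 of 27 listed genes had exon sums to test. Uhrf1, which brings the DNA methyltransferase Dnmt1 to replicating DNA, and Zfp809, a KRAB zinc finger protein that binds retroviral DNA, rose and none fell (median of the list 0.41, against 0.07 over all host genes). Uhrf1 had 121, 119, 179, 157 and 120.4 in N2.1 tumours, against 31.9, 32.8, 51.6, 23.9 and 52.7 in F2 tumours (log2 fold change 1.87, SE 0.33, adjusted p = 1.46e-04), and Zfp809 averaged 604 in N2.1 and 401 in F2 (log2 fold change 0.60, SE 0.10, adjusted p = 9.10e-05). Both had groups that did not overlap. In introns 7 of 24 rose and none fell, among them Pphln1 (1.35) and Dnmt3a (1.57), against 14.4% of all intron sums.

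Zinc finger genes named Zfp gave 300 exon sums, of which 13 rose and 27 fell, shares close to those of all host genes. Zfp345, Zfp979, Zfp992 and Zfp456 rose on the log2 scale by 2.74, 3.83, 2.57 and 2.47, and Zfp422, Zfp467, Zfp358 and Zfp651 fell (log2 fold changes -5.34, -2.96, -1.52 and -1.33). In their introns 53 of 238 rose and 1 fell, against 14.4% and 0.989% of all intron sums.

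Of 26 interferon response genes 18 had exon sums to test. Eif2ak2, the kinase PKR that senses double-stranded RNA, was the 1 gene that rose under both scalings, with 2469, 5489, 1917, 1782 and 3235 in N2.1 tumours, against 1432, 917, 1318, 2250.0 and 669 in F2 tumours (log2 fold change 1.17, SE 0.32, adjusted p = 0.0104). Its groups overlapped. Isg15, a ubiquitin-like protein, was called with the deposited factors alone (2.13, adjusted p = 0.0645 with TMM factors, limma). The list's median log2 fold change was 0.99 and its summed signal ranged from 4968 to 19834 in N2.1 and from 2254 to 10819.8 in F2, with N2.1 tumour B the highest, so the passages overlapped widely. In introns Oas1a, Oas2 and Eif2ak2 rose of 23 measured, near the 14.4% of all intron sums. The intron sums of Oas1a, an enzyme that activates RNase L, were 196, 449, 115, 75.1 and 276 in N2.1 tumours, against 38.3, 1.09, 31.6, 133 and 0 in F2 tumours, and the groups overlapped. Of 17 antigen presentation genes 7 had exon sums and none was called, with adjusted p of 0.0611 for H2-D1 and 0.187 for Erap1 (limma), while the introns of Erap1, Nlrc5, H2-K1 and H2-Q4 rose, 4 of 10, against 14.4% of all intron sums.

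Of 28 genes of DNA replication and mitosis 12 had exon sums. Mcm5, of the replicative helicase, and Rrm2 rose and none fell. Rrm2 had 449, 609, 929, 700.5 and 526 in N2.1 tumours, against 259, 236, 272, 181 and 299 in F2 tumours (log2 fold change 1.34, SE 0.24, adjusted p = 1.67e-04). Its groups did not overlap, while Top2a (0.39), Aurkb (0.00) and Mcm6 (-0.01) were not called. In introns 26 genes of this list were measured and none was called under both scalings, against the 14.4% of all intron sums that rose. In the MAPK list 3 of 19 genes were measured in exons. Braf, the kinase whose mutation drives this line, had 169, 153, 95.6, 181 and 144 in N2.1 tumours, against 54.7, 86.4, 72.7, 91.8 and 82.7 in F2 tumours (log2 fold change 0.92, SE 0.16, adjusted p = 1.19e-04), and rose in introns too (1.52). Etv1, a transcription factor induced by this pathway, averaged 167 in N2.1 and 358 in F2 (log2 fold change -1.04, SE 0.27, adjusted p = 0.00694).

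Of 18 neural crest and dedifferentiation genes 5 had exon sums. Tead1, the transcription factor of the Hippo pathway, had 2612, 2724, 2712, 2688 and 2534 in N2.1 tumours, against 1702, 1264, 1621, 1346 and 1590.2 in F2 tumours (log2 fold change 0.83, SE 0.19, adjusted p = 0.00311), with groups apart. Nt5e, the enzyme CD73, fell (log2 fold change -2.21, SE 0.77, adjusted p = 0.0431) at low signal, with means of 0.752 in N2.1 and 6.34 in F2. Of 25 matrix genes 7 were measured and Itih5 fell, and the others were not called; Col4a2, a basement membrane collagen, averaged 383 in N2.1 and 896 in F2 (adjusted p = 0.219, limma). In the list of TGF-beta, Wnt and Notch genes 4 of 22 were measured and Fzd7, a Wnt receptor, fell by 0.46. In introns of that list Dkk2, a Wnt antagonist, fell by 4.10 and Notch2, Smad3 and Smad7 rose. Of 17 hypoxia genes 6 were measured and Pfkfb3, a regulator of glycolysis, rose by 1.61. Of 22 imprinted genes 5 had exon sums, and none of these was called under both scalings. In introns 4 were measured, and Rasgrf1 fell as given above, against 0.989% of all intron sums. Rian, which fell in exons, was not on this list.

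The label melanoma could be checked little through repeats: of 15 marker genes Gpnmb and Pax3 had exon sums, and neither was called (summed signal 70.7 to 100.2 in N2.1 and 61.8 to 186 in F2). In introns 3 of these markers were measured. Pax3, a transcription factor of the melanocyte lineage, rose there (1.25), and the others were not called under both scalings. The median log2 fold change of the 3 was -0.21 (-0.43 with TMM factors). Markers of host cells were measured as sparsely. Pdgfra and Pdgfrb were the 2 of 13 fibroblast markers with exon sums, together 627.7 to 2757 in N2.1 and 888 to 1857 in F2. Pdgfra fell, with 312, 1169, 236, 355 and 243 in N2.1 tumours, against 679.9, 787, 574, 1125 and 432 in F2 tumours (log2 fold change -0.86, SE 0.29, adjusted p = 0.0359). The exon sum of Pdgfrb was not called (0.20, adjusted p = 0.706, limma). In introns Pdgfrb rose (1.36), and Pdgfra (0.14) and Gsn (-0.31) were not called. N2.1 tumour B was the highest of its group for the exon sums of Pdgfra and Pdgfrb and for the interferon list. Of 14 leukocyte markers Cd14 was measured, at 1.02 to 12.6 in N2.1 and 7.65 to 26.2 in F2, and no endothelial, lymphocyte, muscle or keratinocyte marker had exon copies to test. In introns, Acta2 rose (3.86) and Cspg4 fell (-2.08), the 2 of 10 muscle and pericyte markers measured there, while Flt1 of endothelial cells (0.98) and Cybb of leukocytes (1.36) were not called. The part of host cells in the results was not tested.

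As a share of each library's signal, which no factor changes, copies in 5′ UTRs held less in N2.1. They held 2.23% ± 0.0995 in N2.1 and 2.65% ± 0.213 in F2 (SD, n = 5 each, exact permutation p = 0.00794, the smallest that 5 against 5 can give, adjusted p = 0.0476 over 6 places). Every N2.1 tumour (2.12% to 2.34%) lay below every F2 tumour (2.37% to 2.84%). With 4 tumours against 5 the call was lost without any 1 of the N2.1 tumours (adjusted p = 0.0952 each). Coding exon copies held 9.15% ± 0.385 in N2.1 and 10.5% ± 1.02 in F2 (exact permutation p = 0.0238, adjusted p = 0.0714). Intron copies held 28.0% ± 2.52 in N2.1 and 21.7% ± 5.08 in F2 (exact permutation p = 0.0397, adjusted p = 0.0794), with 24.6% to 30.1% in N2.1 and 16.4% to 28.2% in F2. The coding and intron differences passed the adjusted threshold without F2 tumour E (exact permutation, adjusted p = 0.0317 each), and the coding difference also without F2 tumour A (adjusted p = 0.0476), and neither did with all tumours, and F2 tumours A and E lay within the N2.1 range. Intergenic copies held 7.32% ± 0.492 in N2.1 and 7.86% ± 0.835 in F2 (exact permutation p = 0.27).

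Whole chromosomes were compared by the median deviation of their exon copies in each library, relative to the median chromosome. None of 20 chromosomes passed the adjusted threshold. The largest shifts were on chromosome 19, with 0.00 ± 0.10 in N2.1 and 0.22 ± 0.19 in F2 (difference -0.22, exact permutation p = 0.0635, adjusted p = 0.127), and on chromosome 3, with 0.09 ± 0.22 in N2.1 and 0.21 ± 0.12 in F2 (difference -0.12, exact permutation p = 0.381, adjusted p = 0.496; log2 scale, SD, n = 5 each). On chromosome 3 the tumours of N2.1 separated, with -0.10, -0.04 and -0.09 in A, B and D and 0.34 and 0.31 in C and E, against 0.00 to 0.30 in F2. Chromosome 16, named after its values were seen, was the 1 chromosome whose groups did not overlap (0.08 ± 0.04 in N2.1 and -0.03 ± 0.02 in F2, exact permutation p = 0.00794, adjusted p = 0.0794).

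**Figure D5:**
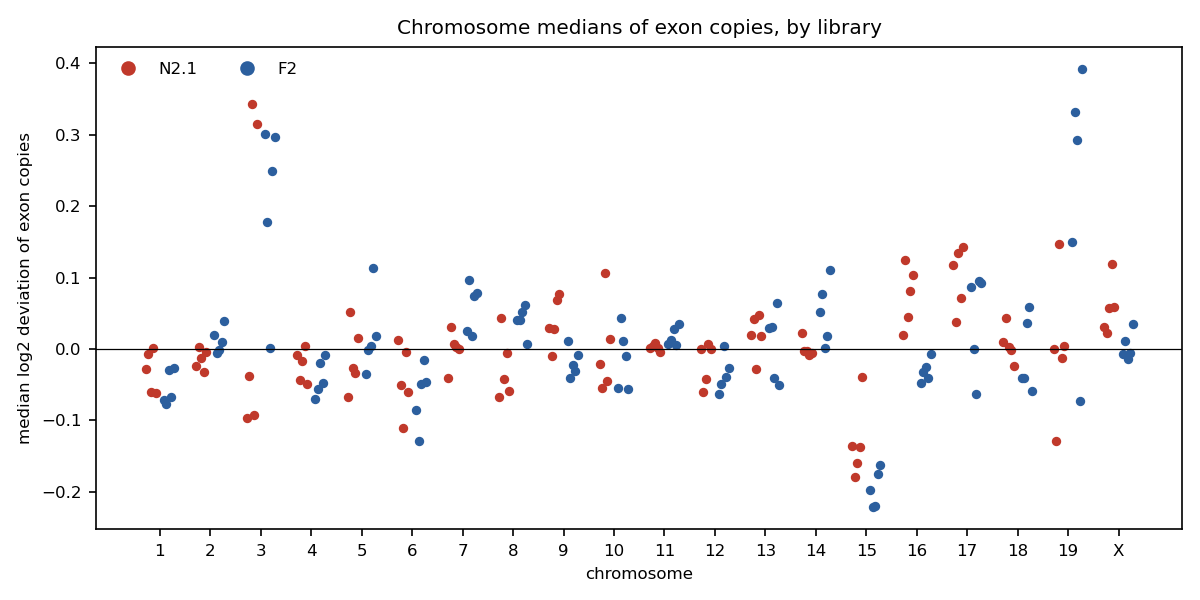
Median deviation of exon copies per chromosome and library (log2 scale, centred on the library's median chromosome), N2.1 tumours in red and F2 tumours in blue. N2.1 tumours C and E (0.34 and 0.31) stand above the other N2.1 tumours on chromosome 3, and the F2 tumours spread widely on chromosome 19 (-0.07 to 0.39).

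Other tumours of the series allow the copies named by N2.1 against F2 to be looked up in libraries outside that contrast. N2.2 tumours were set against F1 tumours, and N2.3 against F0, comparisons that share no library with N2.1 against F2. All groups nevertheless entered 1 estimate of the spread, the TMM factors and the filter on the mean over all libraries. Copies high in N2.2 or N2.3 could thus be tested because of those libraries, so the overlaps below are no outside check. Under both scalings 7.3% of copies were called in N2.2 against F1 (4.7% higher and 2.6% lower) and 6.97% in N2.3 against F0 (4.39% higher and 2.57% lower). Of the 52 copies beyond 50 kb from a gene that rose in N2.1, 48 were among the 69 that rose in N2.2 (92.3% and 69.6%) and 45 among the 66 that rose in N2.3 (86.5% and 68.2%). Of all 174 tested copies at that distance, 39.7% rose in N2.2 and 37.9% in N2.3, with median log2 fold changes of 1.90 and 1.65, and these shares are the background for that overlap. Of the 223 intergenic copies that rose at any distance, 152 were among 334 in N2.2 (68.2% and 45.5%) and 138 among 317 in N2.3 (61.9% and 43.5%). None of the copies in these 2 groups was called lower there. Of all 3493 intergenic copies, 9.56% rose in N2.2 and 9.08% in N2.3.

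Of the 97 intergenic copies that fell, 40 were among 111 in N2.2 (41.2% and 36.0%) and 32 among 96 in N2.3 (33.0% and 33.3%), and 2 were called higher in N2.3. Of the 446 exon copies that rose, 202 were among 468 in N2.2 against F1 (45.3% and 43.2%) and 241 among 896 in N2.3 against F0 (54.0% and 26.9%). Of the 586 exon copies that fell, 287 were among 640 (49.0% and 44.8%) and 180 among 410 (30.7% and 43.9%), and 5 were called higher in N2.3. Of the 679 intron copies that rose, 240 were among 760 in N2.2 (35.3% and 31.6%) and 97 among 246 in N2.3 (14.3% and 39.4%). Of the 100 that fell, 21 were among the 112 that fell in N2.2 (18.8% of these) and 26 among the 349 that fell in N2.3 (7.45% of these). The median log2 fold change of all intron copies was 0.58 in N2.2 against F1 and -0.10 in N2.3 against F0, so intron copies had no general gain in N2.3. Whether these differences between places exceed chance was not tested, and N2.2 and N2.3 are passages of the same series, not independent lines.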

How the data were processed

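Poly(A) RNA of cells from YUMM1.7 tumours was sequenced, and the deposited table gives a signal per repeat copy and library, which the authors made by dividing reads by 1 factor per library, as the values show: 100% were whole reads within 0.1. Of software, featureCounts 1.5.0-p3, StringTie 1.3.3b and HISAT2 2.0.5 stand in the submitters' processing notes, with the build mm10 and without roles. The repeat annotation and the origin of the factors are unknown here. Copies, sums per host gene (exon and intron copies apart) and sums per repeat name and place with a mean of at least 5 over 40 libraries entered limma 3.58.1 as log2(signal + 1) (R 4.3.3; 1 mean for each of 11 groups, trended prior, Benjamini-Hochberg adjustment, threshold 0.05). Calls under both scalings also pass with TMM factors (edgeR 4.0.16) in the same direction. edgeR and DESeq2 1.42.0 on the recovered reads are alternatives. edgeR counted 2241 higher and 774 lower copies with the deposited factors. A copy's place is its overlap (bedtools 2.31.1) with GENCODE M21 genes, exons taken before introns. Ratios of intron to exon signal were tested with limma on genes with a mean of at least 20 in both. Tests of shares and chromosomes are exact two-sided permutation tests in Python 3.11.15. The steps were tested on simulated data with 200 changed features. The members and gene lists were chosen with earlier results of these data known. Named copies are the 6 highest and 6 lowest of each place, and named genes the 12 highest and 12 lowest, called under both scalings with groups that do not overlap; named sums have a mean of at least 50, and of each gene list the called members and up to 4 with the highest mean are named. The labels do not say whether a tumour letter pairs tumours of different passages, and they were treated as unpaired. Deviations of same-letter tumours correlated at 0.0233, 0.0355, 0.0435, -0.125 and -0.0410, which cannot settle whether they were paired. Each SE is from the limma fit, and each SD is between tumours of a passage. No genome sequence was used.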

Additional observations from a re-analysis of the deposited data

Results flagged for a closer look

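Exactly 5 values stood apart from the other 4 tumours of their passage (on the log2 scale, shares in percent), past Dixon's critical value of 0.71 for 5 samples, among 157 groups of values examined; chance gives about 1 in 20. In F2 tumour B the B4A copy in an intron of Gxylt2 had a signal of 29.5, against 14.8 to 17.3 in the other F2 tumours, and the RMER19B copy at Dmp1 had 197, against 59.0 to 83.6. The exon sum of RLTR28 was 837 in N2.1 tumour A, against 1045 to 1144 in the other N2.1 tumours, and stayed above every F2 tumour. The share of signal in noncoding exons was 6.95% in N2.1 tumour B, against 8.11% to 8.39%. The shift of chromosome 14 was 0.0219 in N2.1 tumour A, against -0.00764 to -0.00237.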

How the results depend on the processing

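With TMM factors the calls were 1348 higher and 1403 lower copies, 261 and 795 host genes, 1423 higher intron sums, and 300 and 181 repeat name sums. With DESeq2 size factors they were 1463 and 1237 copies, 303 and 709 genes, 1666 higher intron sums, and 363 and 161 name sums. The edgeR test with TMM factors, chosen after seeing the data, gave 1248 and 1475 copies, 268 and 838 genes, 1255 and 162 intron sums, and 277 and 193 name sums. In N2.2 against F1, TMM factors gave 1562 higher and 1531 lower copies, against 2912 and 863 with the deposited factors. With a mean of at least 20 required, 1296 copies were higher and 52 intron sums lower, and with at least 1, 166 intron sums were lower. With the intron share of the library as a covariate the calls were 941 and 340 copies, 370 and 148 genes, 232 higher intron sums, 189 and 15 name sums, and 63 and 56 ratios. The 10 libraries alone gave 414 higher and 8 lower ratios. With the tumour letter as a replicate block in the 10 libraries alone, 1457 copies were higher, 378 genes higher and 270 lower. The 5′ UTR share then differed by -0.422 (exact permutation test over pairs, adjusted p = 0.125, where 5 pairs cannot go below p = 0.0625). Whether the letters pair tumours is unknown. Against the same 10 libraries without the block (1807 higher copies, 523 higher and 376 lower genes), these counts moved by less than 1.5 times, and the ratios moved by more, to 765 higher and 21 lower with the block. Over tested copies alone the 5′ UTR share differed by -0.34 (adjusted p = 0.0952). The causes were not tested. Leaving out each tumour in turn gave 1481 to 2734 higher and 438 to 827 lower copies, 445 to 584 and 241 to 463 genes, 1530 to 3669 and 64 to 101 intron sums, 488 to 678 and 43 to 84 name sums, and 334 to 1012 and 12 to 16 ratios. The 5′ UTR share then differed by -0.492 to -0.375, that of coding exons by -1.65 to -1.07 and that of introns by 4.92 to 7.88. Lowest counts came mostly without F2 tumour B. Of the values of single named copies, genes, sums and ratios under these settings, 1838 kept their direction and side of the threshold. In 36 the direction held and the call was lost, and 0 reversed. The named copies, genes and sums were picked as large changes called under both scalings, so their values with TMM factors could not lose the call. These totals are therefore no independent check of the named results. Depth limits copies near the floor of 3 reads.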
